A study of Mus musculus with 8 samples.

Results

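Integrins are the cell surface receptors that hold cells to their matrix, and laminins are the trimeric glycoproteins that build basement membranes and serve several of them as ligands. Their genes were taken from the authors' deposited table by the form of the symbol alone, which took in integrin alpha and beta chains, the integrin beta-like protein Itgbl1 and laminin alpha, beta and gamma chains. This gave 36 of the 17631 genes in the table, made up of 16 alpha chains, 8 beta chains, Itgbl1 and 11 laminin chains. The leukocyte chains Itgad and Itgae are not analysed here. Itgb2l, an integrin beta-like gene whose symbol falls outside that form, was in the table at a mutant mean of 0.132 and a control mean of 0.199 and is not counted.

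The tissue was the apical part of lower first molars of mice on postnatal day 7.5, which holds the growing root, in C57BL/6 mice. Control animals were Runx2fl/fl, and mutant animals were Gli1-CreERT2;Runx2fl/fl, so both groups carried the floxed alleles of Runx2, the transcription factor that osteoblasts need to form. Both received tamoxifen by intraperitoneal injection at postnatal day 3.5 (1.5 mg per 10 g of body weight, from corn oil at 20 mg/ml), and each group had 4 libraries. Gli1-CreERT2 is a tamoxifen-inducible recombinase made where Gli1 is active, so deletion was restricted to cells that expressed Gli1 and their descendants. The driver was present in mutant animals alone, and what it does by itself cannot be told apart from the loss of Runx2.

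Each integrin is a pair of 1 alpha and 1 beta chain. The alpha chain largely sets the ligand: some bind collagens, some laminins, some the RGD peptide of fibronectin and related proteins, and a further set is used by leukocytes. Inside the cell, talin, kindlin, ILK and parvin connect the beta tail to actin. Laminin trimers polymerise outside the cell and are joined to type IV collagen by nidogen. In epithelia, teeth included, the integrin of Itga6 and Itgb4 anchors cells to laminin at hemidesmosomes.

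For every gene the table gives a normalised mean per group and the p-value of the comparison. Values per library were not used here, so no spread between libraries can stand beside a mean. The labels do not say whether each library is a separate animal. The p-values compare the groups, and the variation behind them is that among these libraries, which may in part be technical. Group means summed to 955256 in mutant and 1050684 in control molars, and library depth is unknown from them. Markers of the labelled tissue were present, among them the dentin gene Dspp (means of 7360.0 in mutant and 7714 in control molars), the enamel gene Amelx, Krt14 of dental epithelium and Prrx1 of mesenchyme. Runx2 itself stood at 65.1 against 106 (the authors' adjusted p = 0.0646), short of the threshold used below, and whether the deposited values cover the deleted part of the gene is not known. Gli1, whose activity directs the recombinase, stood at 19.9 against 38.8 (log2 ratio -0.96, the authors' adjusted p = 0.0228). The driver and the loss of Runx2 cannot be told apart in this value. The Y-linked gene Ddx3y stood at 25.6 against 12.9 (log2 ratio 0.99, the authors' adjusted p = 0.0486), and Xist, expressed from the inactive X chromosome of females, at 15.05 against 18.4 (the authors' adjusted p = 0.457). When the same trend was taken out of the authors' values, the log2 ratio of Ddx3y was 0.37 and its call was lost (adjusted p = 0.552). The log2 ratio of Xist went the other way in size, from -0.29 to -0.52, and Xist remained without a call. The part of an unequal mix of sexes in any result below was not tested. It is not known whether the values are scaled to transcript length, so levels are compared between groups and not between genes. Means, fold sizes and p-values given for a gene are those of the authors' deposited table, with the mutant mean first in each pair, and log2 ratios of mutant over control were computed from it.

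Itgbl1 and Itga4 rose in the mutant molars, and no integrin or laminin gene fell. The threshold was an adjusted p under 0.05 in the authors' deposited table, which 2 of the 36 genes passed (5.56%), beside 0.788% of all 17631 genes. In the higher direction alone 0.471% of all genes passed, and 0.318% in the lower. At an unadjusted p under 0.05, 10 of the 36 were higher (27.8%, beside 9.89% of all genes) and 3 were lower (8.33%, beside 9.4% of all genes). The group mean was higher in the mutant for 24 genes and lower for 12, with a median log2 ratio of 0.19, while 50.6% of all genes had a higher mean and their median log2 ratio was 0.0033. After each group was rescaled to the same sum, which raises every log2 ratio by the same amount, 28 of the 36 genes (77.8%) had a higher mean, beside 71.8% of all genes.

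Integrin and laminin genes have long exonic sequence, and in this comparison log2 ratios ran with exonic length and transcript GC content. The 36 genes had a median exonic length of 7063 bases, beside 3894 bases over all genes, and a median transcript GC content of 51.6% beside 50.3%. Among protein-coding genes the median log2 ratio was -0.10 in the shortest eighth and 0.11 in the longest, and it was 0.19 in the GC-poorest eighth and -0.13 in the GC-richest. With this trend subtracted, 23 of the 36 genes had a log2 ratio above 0, the median was 0.17 and none passed the threshold, while 33 of all genes did.

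**Figure D1:**
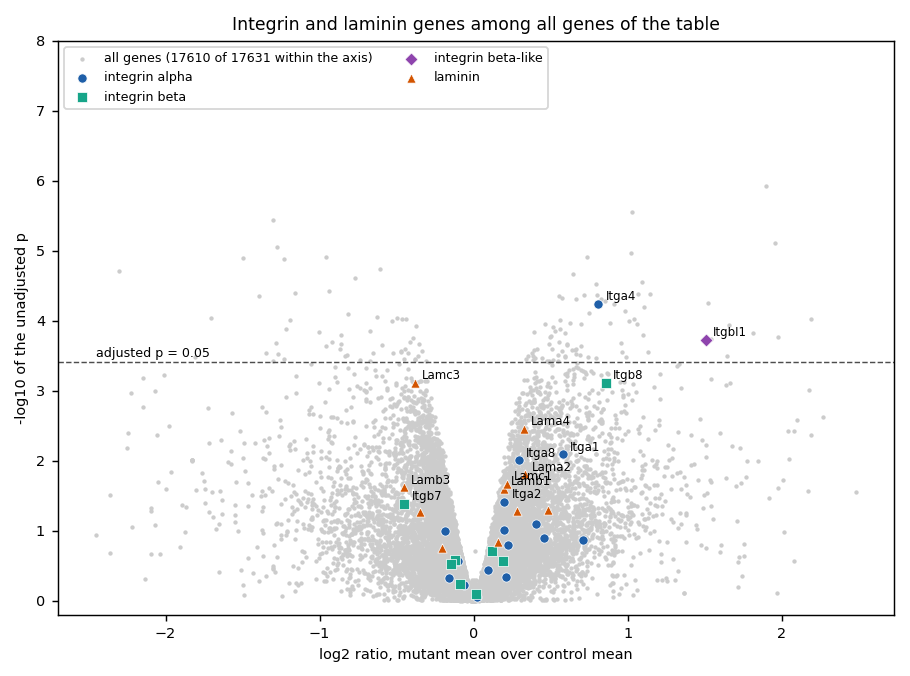
Each point is a gene, with the log2 ratio of the mutant mean over the control mean on the horizontal axis and -log10 of the authors' unadjusted p on the vertical axis; grey points are all genes within the axis and coloured points are the 36 integrin and laminin genes. Itga4 and Itgbl1 lie above the dashed line that marks an adjusted p of 0.05, and Lamc3 and Itgb8 lie just under it.

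Itgbl1 (chromosome 14, 123659971 to 123975618, plus strand, GRCm38, protein-coding) encodes a secreted, cysteine-rich protein built of repeats like those in the stalk of integrin beta chains, and it is not itself a chain of a receptor. Its mean was 22.7 against 8.001, which is 2.84-fold higher (log2 ratio 1.50, the authors' adjusted p = 0.0461). No other of the 36 genes had a log2 ratio as high under the authors' normalisation. When the GC and length trend was taken out of the authors' values, the log2 ratio was 1.33 and the call was lost (adjusted p = 0.250). The transcripts of Itgbl1 are GC-poor, at 40.5% GC.

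Itga4 (chromosome 2, 79255426 to 79333123, plus strand, GRCm38, protein-coding) encodes the alpha4 chain, which pairs with beta1 to bind fibronectin and the vascular adhesion molecule VCAM1, or with beta7 to bind MAdCAM1. Its mean was 47.5 against 27.2, a 1.75-fold rise (log2 ratio 0.81, the authors' adjusted p = 0.0330), and it ranked 31 by p among all genes. When the trend was taken out of the authors' values, the log2 ratio was 0.63 and the call was lost (adjusted p = 0.211). Cerkl, on the opposite strand, shares 8.04% of the exonic bases of Itga4, and its own means were 0.970 and 1.15.

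The partners and ligands of alpha4 named above did not pass the threshold. Its beta chains Itgb1 and Itgb7 had means of 505 against 465 (log2 ratio 0.12) and of 1.76 against 2.40 (log2 ratio -0.45). Among those ligands, Vcam1 stood at 9.55 against 9.46 and Fn1 at 803 against 649, and Madcam1 was scarce, at 0.315 against 0.199. Itga9, whose product also pairs with beta1 and is the nearest relative of alpha4 by ligand, had 20.3 against 17.7 (log2 ratio 0.20, the authors' adjusted p = 0.342).

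Alpha4 is also an integrin of white blood cells, and leukocyte markers had higher means in the same comparison. Of 15 leukocyte and macrophage markers measured, 14 had a higher mean in the mutant (median log2 ratio 0.20), none passed the threshold, and their means summed to 559.3 in mutant and 481.9 in control molars. The pan-leukocyte gene Ptprc stood at 8.65 against 5.50 (the authors' adjusted p = 0.0608), and the macrophage genes Csf1r and Mrc1 at 140.4 against 130.2 and at 112 against 81.1. The lymphocyte marker Cd3e is not analysed here. All 8 mesenchymal markers had a higher mean too, with log2 ratios from 0.05 to 0.71 and a median of 0.17. Their means summed to 993.6 and 777.4, of which Postn alone gave 327 and 200.2. Prrx1, a mesenchymal transcription factor, rose to 79.4 from 49.01 (the authors' adjusted p = 0.0474), a call lost after subtraction of the trend (adjusted p = 0.256). The part of leukocytes or mesenchymal cells in the rise of Itga4 and Itgbl1 was not tested. In whole tissue, more cells of a type and more RNA per cell cannot be told apart.

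Because mutant animals lose a transcription factor in some of their cells, the bases before the start of both genes are shown, from RefSeq on GRCm38.p6. A RUNX core motif was searched as TGTGGT or TGCGGT on both strands in the 250 bases before each start. The first sequence lies at chr2:79255176-79255425 on the plus strand, up to the base before the RefSeq start of Itga4. The second lies at chr14:123659890-123659970 on the plus strand and stops where the annotated exons of Itgbl1 begin. The third, at chr11:95069254-95069283 on the minus strand, is the other match outside annotated exons among the 24 genes that had a promoter to search, before a start of Itga3. Capitals mark a match to the motif.
Itga4: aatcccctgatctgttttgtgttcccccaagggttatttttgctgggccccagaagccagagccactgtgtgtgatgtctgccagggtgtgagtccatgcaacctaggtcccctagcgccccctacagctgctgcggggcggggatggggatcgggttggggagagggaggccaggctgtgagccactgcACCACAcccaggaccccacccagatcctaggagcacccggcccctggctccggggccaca
Itgbl1: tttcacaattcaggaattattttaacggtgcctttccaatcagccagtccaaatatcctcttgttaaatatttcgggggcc
Itga3: cggggtcccttcTGTGGTtcctctaaggtc

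The Itga4 match, ACCACA on the printed strand, begins 60 bases before the start. No match was found in the 250 bases before Itgbl1. RefSeq promoters were found for 24 of the 36 genes, with 27 starts, and 3 of those starts (11.1%) had a match, those of Itga4, Itga3 and Itga8. Over all 32851 promoters the share with a match was 18.6%. Itga3 and Itga8, the other genes with a match, had log2 ratios of -0.19 and 0.29, and neither passed the threshold.

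The collagen-binding alpha chains, Itga1, Itga2, Itga10 and Itga11, had no member past the threshold, and 3 of the 4 had higher means (all 4 after each group was rescaled to the same sum). Itga1, whose product with beta1 prefers the type IV collagen of basement membranes, had 30.4 against 20.4 (log2 ratio 0.58, the authors' adjusted p = 0.131). Itga2, a receptor chain for fibrillar collagen, had 25.7 against 22.4 (log2 ratio 0.20), and Itga10, best known from cartilage, had 30.8 against 26.4 (log2 ratio 0.22). Gm42957, a gene model on the same strand, shares 33.5% of the exonic bases of Itga10, so the counting of Itga10 is uncertain. Itga11, a fibroblast receptor chain for collagen I that is prominent in the periodontal ligament, stood the other way with 34.9 against 37.5 (log2 ratio -0.10). Its ligand genes Col1a1 and Col1a2 had log2 ratios of -0.02 and -0.16, also without a call.

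None of the 4 laminin-binding chains passed the threshold. Itga6, the alpha chain of the hemidesmosome, had 173 against 181 (log2 ratio -0.07), and its partner Itgb4 had 152 against 165 (log2 ratio -0.12), both of which turned above 0 after rescaling to the same sum. Itga3, the other epithelial laminin receptor chain, had 74.98 against 85.4 (log2 ratio -0.19, the authors' adjusted p = 0.348). Itga7, which is mainly a muscle chain, had low means of 3.47 against 3.003, and muscle itself was scarce in the tissue, with means of 9 skeletal muscle markers summing to 5.36 and 8.35. The tetraspanin Cd151, which associates with laminin-binding integrins, had 95.6 against 113 (log2 ratio -0.24, the authors' adjusted p = 0.0967).

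**Figure D2:**
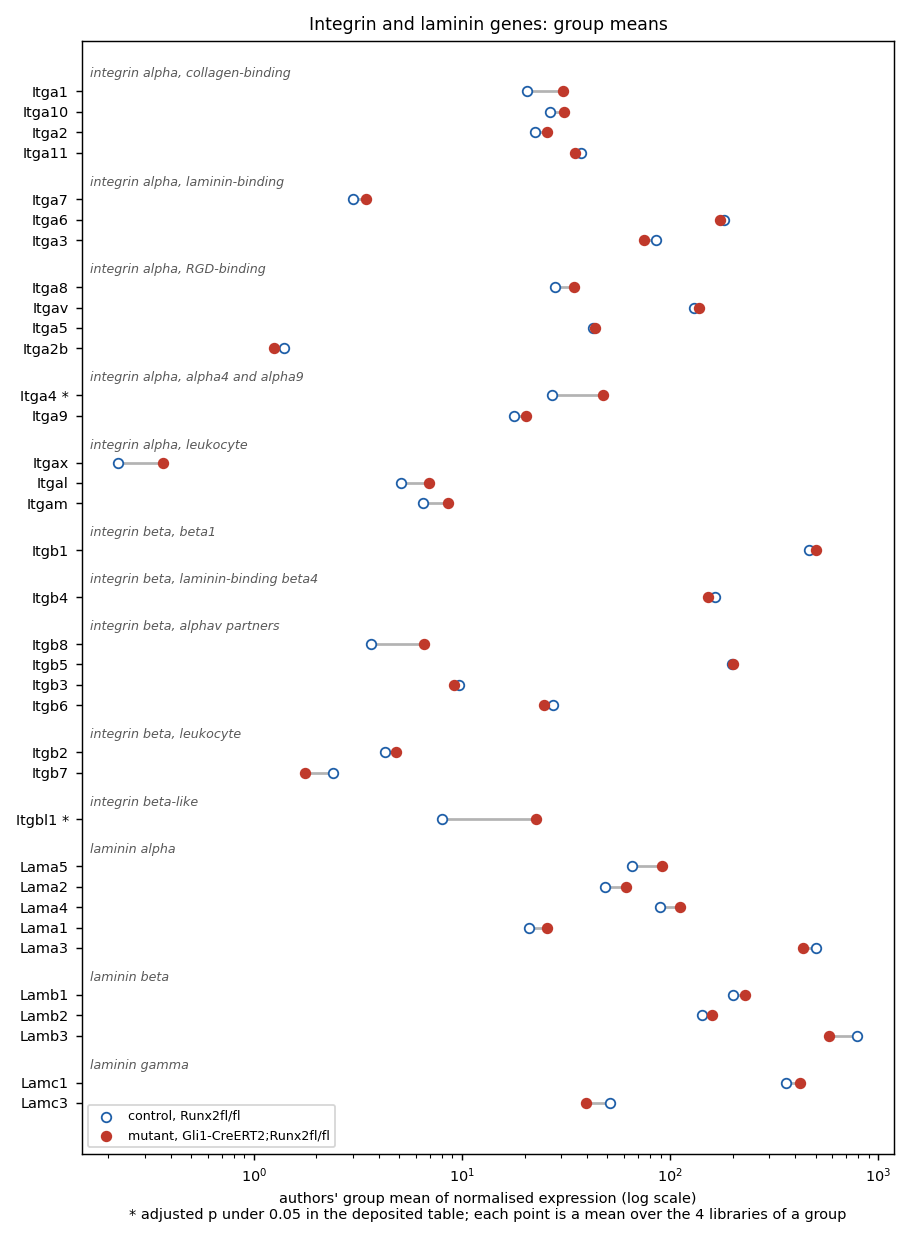
Open circles give the control mean and filled circles the mutant mean of each gene on a logarithmic axis of the authors' normalised expression, with the genes named in the text grouped by ligand class or chain. Wide gaps with the mutant higher are those of Itgbl1, Itgb8 and Itga4, and the laminin chains Lamb3 and Lamc3 lie higher in the control.

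Chains of the RGD-binding receptors gave no call among the 4 alpha chains and the 4 beta chains that pair with alphav. Itgb8, whose product with alphav activates latent TGF-beta, was nearest to the threshold, with means of 6.58 against 3.64 (1.81-fold, the authors' adjusted p = 0.0646). Subtraction of the trend took its log2 ratio from 0.85 to 0.69. Itgav itself had 138 against 129.9 (log2 ratio 0.09), which turned to -0.0072 when the trend was subtracted. Itgb6, the epithelial activator of latent TGF-beta, which enamel formation requires, had 24.7 against 27.3 (log2 ratio -0.15). Itgb3, the osteoclast partner of alphav, had 9.13 against 9.72, and the widely expressed Itgb5 had 201 against 198. Among the cargo of the TGF-beta activators, Tgfb1 had 303 against 375 (log2 ratio -0.31, the authors' adjusted p = 0.0903), opposite in sign to Itgb8, and Tgfb3 had 312 against 281.

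Itga8, the receptor chain for nephronectin, had 34.5 against 28.1 (log2 ratio 0.29, the authors' adjusted p = 0.140), and its ligand gene Npnt had 182 against 188. The fibronectin receptor chain Itga5 had 43.4 against 42.8 (log2 ratio 0.02). The platelet chain Itga2b was scarce at 1.25 against 1.39. Of the 3 platelet markers measured, Pf4 stood higher in the mutant (17.4 against 13.5), Gp1bb and Ppbp stood lower, and none passed.

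The leukocyte alpha chains all had higher means without a call. Itgam, the alpha chain of the macrophage and neutrophil receptor Mac-1, had 8.61 against 6.52 (log2 ratio 0.40, the authors' adjusted p = 0.314). Itgal, of the lymphocyte receptor LFA-1, had 6.96 against 5.07 (log2 ratio 0.46), and the dendritic cell chain Itgax had 0.366 against 0.224 (log2 ratio 0.71). Their shared partner Itgb2 had 4.84 against 4.25 (log2 ratio 0.19). These 4 genes had the sign of the 14 leukocyte markers given above. Itgb7 had the other sign, with a log2 ratio of -0.45 at an unadjusted p of 0.0414 by the authors. Gm49368, a gene model on the same strand, shares 68.7% of the exonic bases of Itgam, so its counts are uncertain.

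**Figure D3:**
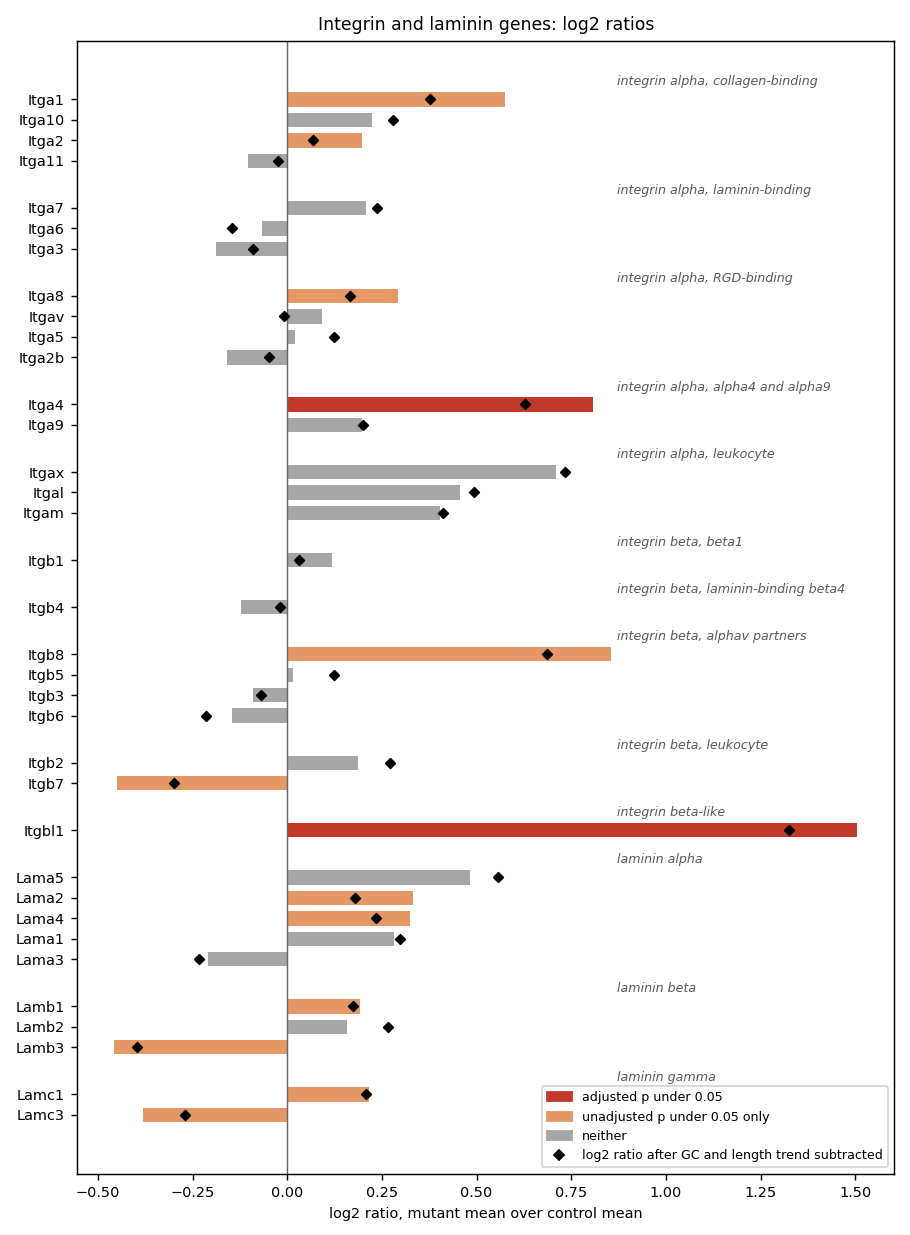
Bars give, for each gene named in the text, the log2 ratio of its mutant mean over its control mean, coloured by the authors' p-values, and black diamonds give the same ratio after the trend on GC content and length was subtracted. Itga4 and Itgbl1 are the red bars, the diamonds of both lie closer to 0 than the bar ends, and Itgav is the gene whose diamond lies on the other side of 0.

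None of the 11 laminin chains passed the threshold. At an unadjusted p under 0.05, 4 were higher in the mutant (Lama2, Lama4, Lamb1 and Lamc1), which is 36.4%, beside 9.89% of all genes. At the same threshold 2 were lower (Lamb3 and Lamc3), which is 18.2%, beside 9.4% of all genes.

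Among alpha chains, Lama4, found in vessel walls and mesenchyme, had 112 against 89.5 (log2 ratio 0.32, the authors' adjusted p = 0.0980). Lama2, the chain of muscle, nerve and mesenchymal basement membranes, had 61.4 against 48.8 (log2 ratio 0.33). Lama5, the main alpha chain of many mature epithelial and vascular basement membranes, had 91.8 against 65.7 (log2 ratio 0.48), and Lama1, typical of early epithelium, had 25.6 against 21.04 (log2 ratio 0.28). These 4 stood higher in the mutant, with adjusted p-values by the authors from 0.0980 (Lama4) to 0.266 (Lama1). Lama3 stood lower, at 435 against 502 (log2 ratio -0.21, the authors' adjusted p = 0.449).

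The beta and gamma chains held both signs as well. Lamb1 and Lamc1, which take part in many laminin trimers, had 229 against 200.3 (log2 ratio 0.19) and 419.6 against 361 (log2 ratio 0.22). Lamb2, frequent in vessels and at nerve contacts, had 159 against 142 (log2 ratio 0.16). Lamb3, a beta chain of epithelial basement membranes, stood lower, at 579 against 795 (log2 ratio -0.46, the authors' adjusted p = 0.194). Lamc3, a gamma chain of restricted expression, had 39.4 against 51.3, which is 1.302-fold lower (the authors' adjusted p = 0.0646). When the authors' p-values were adjusted over only the 8816 genes at or above the median level, Lamc3 passed (adjusted p = 0.0488).

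Ameloblast and epithelial markers were read beside the Lama3 and Lamb3 values. Of 7 ameloblast markers 6 had a lower mean in the mutant, with a median log2 ratio of -0.56 and none past the threshold, and they made up 18.6% of the summed means in mutant and 25.0% in control molars. The 8 general dental epithelium markers were divided, 5 higher and 3 lower (7 higher after rescaling to the same sum, under which 71.8% of all genes were higher), with a median log2 ratio of 0.03. Krt14 had 923 against 973 and Krt5 1222 against 1192. The log2 ratios of Lama3 (-0.21) and Lamb3 (-0.46) lay between the medians of both marker lists. This holds for all 12 of the 36 genes with a lower mean, so the position does not set Lama3 and Lamb3 apart. The part of ameloblast content in the laminin values was not tested.

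Other components of the basement membrane mostly had higher means in the mutant. Of 24 laminin partners measured, 22 had a higher mean, with a median log2 ratio of 0.19, and none passed the threshold. By the authors' unadjusted p under 0.05, 7 were higher (29.2%, beside 9.89% of all genes) and 0 were lower. The type IV collagen chain Col4a6 had 16.2 against 10.2 (log2 ratio 0.66, the authors' adjusted p = 0.0548), the Fraser complex gene Frem1 had 77.4 against 51.4 (log2 ratio 0.59), and the linker Nid2 had 124 against 95.6 (log2 ratio 0.37). Col17a1, a collagen of the hemidesmosome like the Itga6 and Itgb4 integrin, was 1 of the 2 lower genes, at 372 against 428 (log2 ratio -0.20). Bcam, a receptor for Lama5, was the other (log2 ratio -0.07). Endothelial cells also make Lama4 and Lama5, and 8 of 10 endothelial markers had higher means (summed means 354.2 and 324.3) without a call. Of 10 smooth muscle and pericyte markers 6 were higher and 4 lower, and the contractile genes Acta2 (23.7 against 52.97, the authors' adjusted p = 0.0318) and Tagln (15.2 against 30.4, the authors' adjusted p = 0.0417) fell. These calls were 20% of the list, beside 0.318% of all genes called lower. When the trend was taken out of the authors' values both calls were lost (adjusted p = 0.0626 and 0.135). Myh11, another contractile gene, had 4.53 against 4.44, and Cnn1 and Myl9 had lower means without a call. Among 8 Schwann cell markers 5 were lower, and among 6 odontoblast markers 5 were lower, none past the threshold; after rescaling to the same sum 5 of the 8 and 3 of the 6 were higher. The part of these cell types in the laminin and partner values was not tested.

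Inside the cell, Parvb and Ptk2b fell among 31 genes of focal adhesions and integrin activation (6.45%, beside 0.318% of all genes). None of the 31 rose, beside 0.471% of all genes. Parvb encodes beta-parvin, which joins ILK to actin, and fell to 158 from 226 (log2 ratio -0.52, the authors' adjusted p = 0.0484). Ptk2b encodes PYK2, a kinase related to focal adhesion kinase, and fell to 14.9 from 20.02 (log2 ratio -0.43, the authors' adjusted p = 0.0484). When the trend was taken out of the authors' values both calls were lost (adjusted p = 0.160 and 0.0941). Sharpin, which holds integrins inactive, had 17.01 against 21.3 (log2 ratio -0.33, the authors' adjusted p = 0.0767). Of the 31 genes 21 had a lower mean, and after each group was rescaled to the same sum 19 had a higher one (61.3%, beside 71.8% of all genes). Focal adhesion kinase itself, Ptk2, and vinculin, Vcl, had means of 62.9 against 64.2 and of 75.5 against 75.6.

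None of 20 genes for integrin ligands passed the threshold, and their means were higher for 11 and lower for 9 (15 were higher after rescaling to the same sum, which is 75.0%, beside 71.8% of all genes). Postn, a matrix protein of the follicle and periodontal ligament that alphav integrins bind, had 327 against 200.2 (the authors' adjusted p = 0.0590). Thbs1, a ligand of several integrins, had 234 against 140.4 (log2 ratio 0.74). The RGD proteins of bone had the other sign, with Spp1 at 38.05 against 91.3 (log2 ratio -1.26, the authors' adjusted p = 0.106) and Ibsp at 80.4 against 179 (log2 ratio -1.16). Itgb3, a beta chain that binds both, had a log2 ratio of -0.09.

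**Figure D4:**
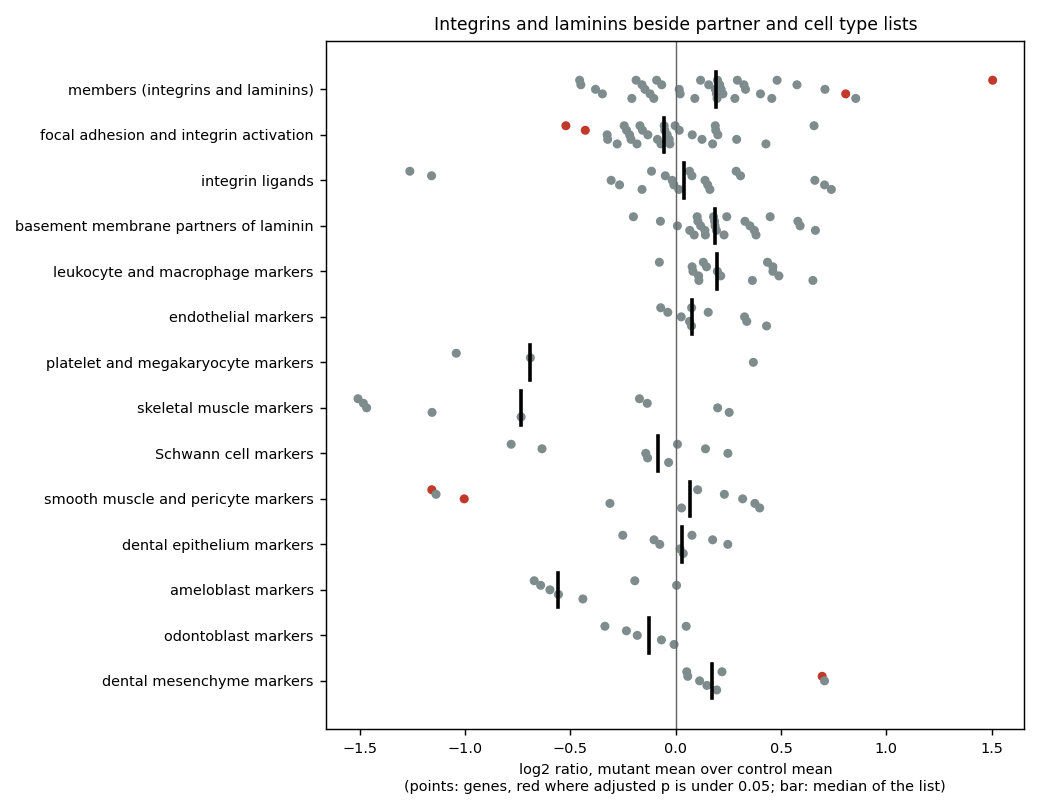
Points give the log2 ratio of each gene in a list, red where the authors' adjusted p is under 0.05, and the black bar gives the median of the list. The medians of the integrin and laminin genes (0.19), of the laminin partners (0.19) and of the leukocyte markers (0.20) lie above 0, and that of the ameloblast markers (-0.56) lies below.

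The sums of the group means differ, and rescaling them to be equal added 0.14 to every log2 ratio. This took Itga6, Itga11, Itgb3 and Itgb4 from lower to higher and left 28 of the 36 genes higher. All 11 laminin chains kept their direction under it, as did Itga4, Itgbl1, Itgb8 and Itga1. When the ameloblast genes were left out of the sums, the shift was 0.02 and all 36 genes kept their direction.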

How the data were processed

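Mouse molar RNA was sequenced from 4 control and 4 mutant libraries. The submitters' processing notes name STAR 2.6.1d, Partek and mm10 and give no roles; the annotation, counting strand, normalisation and statistical model are settings not given in the sources used here. The deposited group means are normalised signal on a linear scale. For all 17631 genes the deposited total is 4 times the sum of both means (relative tolerance 1e-06), so it too is a normalised signal rather than a read count. Per the file headers, the deposited ratio is knockout over wild type, and the signed fold change, a score here, restates it. The deposited p-values are from the authors, and their FDR equals the Benjamini-Hochberg adjustment over all genes. With means per group alone, tests on counts, paired tests and intervals could not be made, and the authors' adjusted p under 0.05 was used.

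Computed here were log2 ratios, counts per list, coordinates, GC content and exonic length (GENCODE M21 on GRCm38, 17562 genes matched) and motif matches. The trend of log2 ratio and of signed z on GC content and log2 length was fitted with smooth terms (mgcv 1.9.3, R 4.3.3) over 13128 protein-coding genes whose greater mean was 1 or more. It took 25.9% of the variance of z and was subtracted before p-values were recomputed. A call lost after this step does not show that the gene was unchanged. The subtraction also takes away real change that runs with GC content or length. Every integrin and laminin gene in the table is named except 1, which is counted but not reported here, with those partner genes that passed or had low p-values and a few markers. Named for context after their values were seen were Vcam1, Fn1, Madcam1, Col1a1, Col1a2, Cd151, Tgfb3, Npnt, Thbs1, Ibsp, Col17a1, Bcam, Ptk2, Vcl, Cerkl, Ptprc, Prrx1, Acta2, Tagln, Runx2, Gli1, Ddx3y, Xist and Itgb2l. Myh11, Cnn1 and Myl9 were also named after their values were seen. The genes and lists were chosen with earlier results of these data known.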

Additional observations from a re-analysis of the deposited data

How the results depend on the processing

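Of the integrin and laminin genes, 2 were called higher and 0 lower. At an adjusted p under 0.10 there were 4 higher (Itgb8 and Lama4 added) and 1 lower (Lamc3), and at an unadjusted p under 0.05 there were 10 and 3. Adjustment over genes whose greater mean was 1 or more gave 2 and 0, and over genes at or above the median level 2 and 1 (Lamc3). With the GC and length trend subtracted, 0 were called in either direction; over all genes 33 were then called, against 139, with 23 higher and 10 lower. Of the 75 partner genes, 0 were called higher (beside 0.471% of all genes) and 2 lower (2.67%, beside 0.318%). These became 4 and 5 at an adjusted p under 0.10, and 12 and 12 at an unadjusted p under 0.05. The latter is 16% in each direction, beside 9.89% of all genes higher and 9.4% lower. The counts were 2 (Col4a6 and Postn) and 2 with the lower filter, 3 (Frem1 added) and 2 with the median filter, and 0 and 0 with the trend subtracted. The cause of these changes was not tested, beyond the number of genes tested and the threshold itself. The log2 ratios of Itga4 and Itgbl1 kept their sign under every scaling tried, with a pseudocount of 1 and with the trend subtracted. A pseudocount of 1 changed the direction of none of the 36 genes. No paired analysis was possible because the table holds group means, and for the same reason no replicate could be left out. The depth of the libraries is unknown, so values under 1, as for Itgax and Madcam1, have unknown precision.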
